A study of Mus musculus with 18 samples.

Results

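The question was which genes responded to OK-432 in the same direction in mouse tumours grown from 3 cell lines, using all 18 of the 18 libraries of the study. OK-432 is a penicillin-treated, lyophilised preparation of Streptococcus pyogenes that is injected into tumours as an immune stimulant. The CT26 line derives from a BALB/c colon carcinoma, CT26NYESO1 (CT26-NY-ESO-1 in the labels) carries the name of a human tumour antigen, and LL2 (LL/2) is Lewis lung carcinoma, of C57BL/6 origin. Cells were inoculated under the skin of BALB/cJ or C57BL/6J mice, and bulk RNA of whole tumours was sequenced on day 14. In each tumour type 3 libraries came from tumours treated with OK-432 for 24 hours (OK432) and 3 from tumours without it (Ctrl). The sources used here do not give what the controls received, the age and sex of the mice or whether a line is a single clone. Since no label states that each library is a different mouse, p-values reflect only how much these libraries vary, and part of that may be technical.

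For each gene the OK432 minus Ctrl difference was taken within each tumour type on the log2(TPM + 1) scale, and the 3 differences were averaged with equal weight. TPM gives each transcript's share of a library per unit of length. Of 55291 genes, 16816 reached 1 TPM in 3 or more libraries and were tested. A gene was called where the Benjamini-Hochberg adjusted p of its average effect, from limma, was under 0.05. A gene was separated higher in a tumour type where its lowest OK432 library lay above its highest control library there. The average and the separation use the same differences, so neither is support for the other.

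A small group of genes passed each rule. In the average, 28 genes rose, 0.167% of those tested, and 1 fell, 0.00595%. At an unadjusted p under 0.05 there were 1735 genes, 736 higher (4.38%) and 999 lower (5.94%). The average lay above 0 for 43.5% of tested genes and below 0 for 56.5%. Separation in every tumour type held for 31 genes that were higher, 0.184% of those tested, and for 6 that were lower, 0.0357%. Of the 31 genes, 24 were also called. They include neutrophil genes, chemokines and a growth factor that act on neutrophils, interleukin-1 family cytokines and antimicrobial proteins. Within single tumour types separation was common: 4.79% of tested genes were separated higher in CT26, 7.14% in CT26NYESO1 and 4.7% in LL2, and 5.1%, 9.84% and 5.17% were separated lower. Another 21 genes were separated in all 3 tumour types but not in 1 direction.

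Bacterial products are sensed by Toll-like receptors and related proteins on macrophages, stromal cells and tumour cells. Signalling through NF-kappaB then switches on interleukin-1 cytokines, CXC chemokines that bind the receptor CXCR2, and granulocyte colony-stimulating factor. These bring neutrophils from blood into tissue, and neutrophils carry large amounts of the calcium-binding proteins S100A8 and S100A9. In bulk tumour RNA, more cells of a type and more RNA per cell cannot be told apart.

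Promoter sequences of 6 genes are shown because they belong to the neutrophil genes, the antimicrobial genes and the CXCR2 ligands described below and hold the motifs counted next. Each run is the 250 bases before the RefSeq start of the gene on GRCm38.p6, read in the direction of the gene. It is reference sequence of C57BL/6J and not sequence of these tumours. Capitals mark matches, on either strand, to the C/EBP motif TTGCNNAA or to the kappa-B motif, which is the binding site of NF-kappaB. The windows are chr3:90695722-90695971 (minus strand) for S100a9, chr2:32387740-32387989 (minus strand) for Lcn2, chr7:46715677-46715926 (minus strand) for Saa3, chr2:164356508-164356757 (minus strand) for Slpi, chr5:90903649-90903898 (plus strand) for Cxcl2 and chr5:90785851-90786100 (plus strand) for Cxcl3.
S100a9: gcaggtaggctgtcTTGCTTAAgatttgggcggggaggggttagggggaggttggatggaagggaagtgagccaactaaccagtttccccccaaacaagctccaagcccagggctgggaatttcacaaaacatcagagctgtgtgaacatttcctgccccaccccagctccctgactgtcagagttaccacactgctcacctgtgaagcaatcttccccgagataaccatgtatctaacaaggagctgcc
Lcn2: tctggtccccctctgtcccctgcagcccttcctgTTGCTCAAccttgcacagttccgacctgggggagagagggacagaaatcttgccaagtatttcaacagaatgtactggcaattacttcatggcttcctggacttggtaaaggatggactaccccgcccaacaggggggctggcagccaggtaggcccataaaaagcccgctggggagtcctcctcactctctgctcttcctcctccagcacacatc
Saa3: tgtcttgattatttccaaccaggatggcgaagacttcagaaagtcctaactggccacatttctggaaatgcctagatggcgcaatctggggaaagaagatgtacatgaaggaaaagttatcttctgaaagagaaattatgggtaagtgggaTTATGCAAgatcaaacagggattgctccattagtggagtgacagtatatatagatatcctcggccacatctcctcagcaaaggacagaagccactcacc
Slpi: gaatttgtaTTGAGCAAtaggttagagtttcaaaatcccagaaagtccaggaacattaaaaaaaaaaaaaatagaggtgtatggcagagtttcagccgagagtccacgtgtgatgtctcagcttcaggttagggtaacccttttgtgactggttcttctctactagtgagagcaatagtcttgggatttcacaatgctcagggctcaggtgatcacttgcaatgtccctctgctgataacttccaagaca
Cxcl2: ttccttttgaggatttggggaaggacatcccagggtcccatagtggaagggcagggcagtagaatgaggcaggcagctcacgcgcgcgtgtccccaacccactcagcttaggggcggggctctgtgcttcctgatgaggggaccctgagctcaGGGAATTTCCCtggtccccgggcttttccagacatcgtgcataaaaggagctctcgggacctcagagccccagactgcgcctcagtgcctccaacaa
Cxcl3: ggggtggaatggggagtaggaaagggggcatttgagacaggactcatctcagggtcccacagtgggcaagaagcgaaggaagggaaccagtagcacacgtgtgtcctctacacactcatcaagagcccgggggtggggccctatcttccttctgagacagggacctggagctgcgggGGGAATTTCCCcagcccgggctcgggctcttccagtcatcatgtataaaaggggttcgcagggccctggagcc

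The first 4 runs hold 1 C/EBP match each, and in Saa3 it begins 99 bases before the start. Cxcl2 and Cxcl3 hold the same stretch of capitals, which is matched on both strands with a shift of 1 base, beginning 97 bases before the start of Cxcl2 and 73 before that of Cxcl3. RefSeq gave a promoter for 22 of the 31 genes separated higher. A C/EBP match stood in 6 of the 22 windows (27.3%), against 7.55% of the 11235 promoters of tested genes in the table. The other 2 genes with it were Retnlg and Clec4e. A kappa-B match also stood in 6 (27.3%, against 8.62%), the others being Chil1, Asprv1, Rhov and Csf3r. No window held both, so 12 of 22 held one or the other (54.5%, against 15.7%). The letters TATAAA on the gene's own strand were in 6 (27.3%, against 4.36%). The AP-1 motif TGANTCA stood in 1 window (4.55%, against 4.76%), and the STAT motif TTCNNNGAA in 1 (4.55%, against 6.21%). A match describes letters in a window and does not show that a factor was bound.

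Calprotectin genes gave the largest shared rises. S100a9 and S100a8 encode the subunits of calprotectin, which binds zinc and manganese and is abundant in neutrophils. S100a9 was at 9.47, 9.83 and 12.2 TPM in CT26 controls and 94.4, 57.6 and 100.5 TPM in CT26 tumours given OK-432. It was at 1.78, 1.72 and 1.95 TPM in CT26NYESO1 controls and 452, 42.9 and 320.1 TPM in CT26NYESO1 tumours given OK-432. In LL2 it was at 8.1, 13.6 and 7.15 TPM in controls and 73.5, 78.9 and 130.4 TPM with OK-432. All 9 treated libraries lay above the 9 controls of any tumour type, and the CT26NYESO1 controls were the lowest. S100a9 rose by 4.02 ± 0.366 (SE; limma adjusted p = 0.000489) on average, with effects of 2.86 in CT26, 6.04 in CT26NYESO1 and 3.16 in LL2. S100a8 was at 2.47, 4.87 and 5.72 TPM in CT26 controls and 35.9, 26.2 and 50.2 TPM in CT26 tumours given OK-432. Its values were 1.54, 1.9 and 3.32 TPM in CT26NYESO1 controls and 183, 19.6 and 123 TPM in CT26NYESO1 tumours given OK-432, and 5.22, 8.79 and 5.26 TPM in LL2 controls against 41, 39.3 and 62.3 TPM with OK-432. The second treated CT26NYESO1 library had the lowest treated value of S100a8 in the study, and still lay above every control. S100a8 rose by 3.39 ± 0.356 (SE; limma adjusted p = 0.00103). Group means of S100a8 were higher by 8.6-fold in CT26, 48.2-fold in CT26NYESO1 and 7.4-fold in LL2. On the log2 scale the smallest gap between treated and control libraries within a tumour type was 2.15 for S100a9 and 2.02 for S100a8, the widest of the 31 genes. S100a8 (chr3:90668978-90670035 on mm10) and S100a9 (chr3:90692632-90695721) lie side by side, 22597 bases apart.

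**Figure D1:**
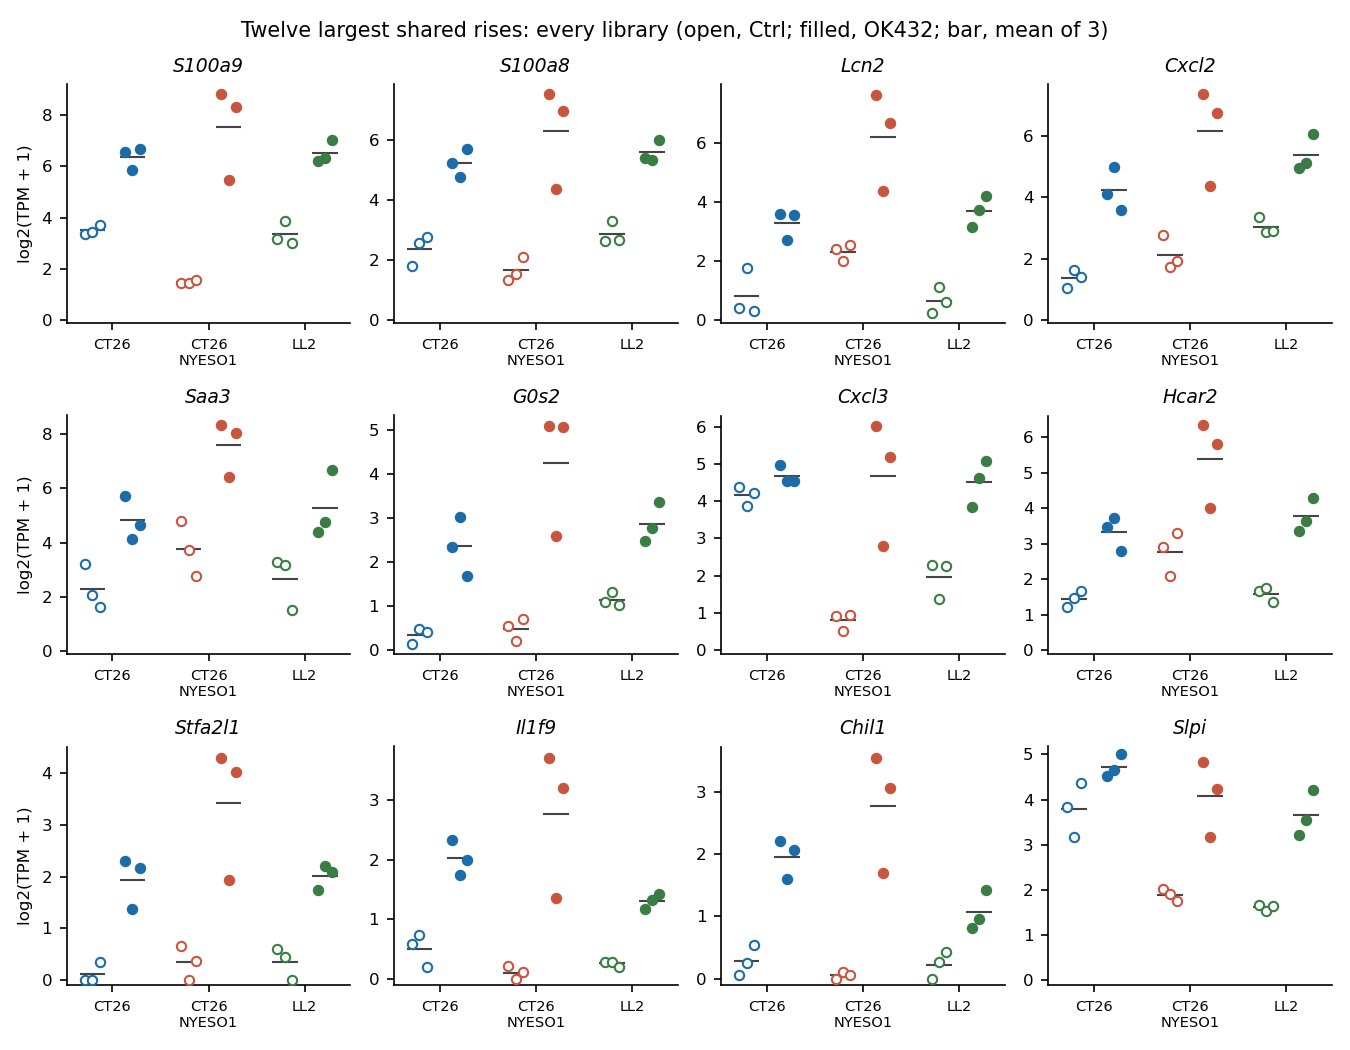
Level of the 12 genes with the largest called rises that were separated in every tumour type and reached a group mean of 5 TPM, as log2(TPM + 1) on the y axis, by tumour type on the x axis. Open points are Ctrl libraries, filled points OK432 libraries and bars the mean of 3; filled points lie above open points within each tumour type, and 1 treated CT26NYESO1 library is below the other 2 in every panel.

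Other neutrophil genes followed. G0s2, an inhibitor of fat breakdown that neutrophils express strongly, was at 0.0902, 0.388 and 0.316 TPM in CT26 controls and 4.05, 7.16 and 2.22 TPM in CT26 tumours given OK-432. It was at 0.449, 0.143 and 0.615 TPM in CT26NYESO1 controls and 32.8, 4.97 and 32.6 TPM in CT26NYESO1 tumours given OK-432, and in LL2 at 1.14, 1.48 and 1.01 TPM in controls and 4.57, 5.8 and 9.21 TPM with OK-432. G0s2 was thus under 2 TPM in every control and above 2 TPM in every treated library, and it rose by 2.5 ± 0.302 (SE; limma adjusted p = 0.0019). Hcar2, the receptor of niacin and beta-hydroxybutyrate, was at 1.33 to 2.17 TPM in CT26 controls and 5.95 to 12.2 TPM with OK-432, at 3.25 to 8.86 TPM in CT26NYESO1 controls and 15 to 80.5 TPM with OK-432, and at 1.59 to 2.4 TPM in LL2 controls and 9.32 to 18.6 TPM with OK-432. It rose by 2.22 ± 0.284 (SE; limma adjusted p = 0.00271), and its effects were 1.88 in CT26, 2.63 in CT26NYESO1 and 2.17 in LL2. Stfa2l1, a stefin that inhibits cathepsins, was listed at 0 in 4 of the 9 controls and lay between 1.59 and 18.8 TPM in the treated libraries. It rose by 2.19 ± 0.264 (SE; limma adjusted p = 0.00187). Retnlg, a resistin-like protein of neutrophils, rose by 1.69 ± 0.279 (SE; limma adjusted p = 0.0196). It lay at 0 to 0.381 TPM in CT26 controls and 0.607 to 2.91 TPM with OK-432, at 0 to 0.513 TPM in CT26NYESO1 controls and 0.724 to 9.44 TPM with OK-432, and at 0.267 to 0.915 TPM in LL2 controls and 4.23 to 6.41 TPM with OK-432. Fpr1, the receptor for formylated bacterial peptides, rose by 1.09 ± 0.148 (SE; limma adjusted p = 0.00212). Its levels were 0.848 to 2.73 TPM in CT26 controls and 4.07 to 5.31 TPM with OK-432, 1.85 to 2.98 TPM in CT26NYESO1 controls and 5.18 to 11.2 TPM with OK-432, and 2.64 to 4.06 TPM in LL2 controls and 5.13 to 7.45 TPM with OK-432. Smaller rises were those of Asprv1, a skin aspartic protease also found in neutrophils, by 1.16 ± 0.204 (SE; limma adjusted p = 0.0256), and of Csf3r, which binds granulocyte colony-stimulating factor on neutrophils, by 0.79 ± 0.148 (SE; limma adjusted p = 0.0497). The treated and control values of Csf3r came within 0.03 of each other in the tumour type with the smallest gap.

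Of the 37 genes on the list of neutrophil granule and surface genes, 27 were tested, and all 27 had an average effect above 0, as did 43.5% of all tested genes. The average was called for 11 of them, 23 had an unadjusted p under 0.05, and 10 were separated higher in every tumour type. Over all tested genes the shares were 0.167% called higher, 4.38% higher at an unadjusted p under 0.05 and 0.184% separated higher. The median effect of the 27 genes was 1.0 on the log2 scale, against -0.01 for all tested genes. It was 0.78 in CT26, 1.36 in CT26NYESO1 and 0.74 in LL2. Cxcr2, the chemokine receptor of neutrophils, had an average of 1.28 ± 0.266 (SE; limma adjusted p = 0.103) and was separated higher in 2 tumour types. In CT26 the second treated library, at 1.12 TPM, lay below the highest control, at 1.74 TPM. A gene could enter the tested set through its treated libraries alone, so counts for this and the other lists are descriptions and no test. The other 10 listed genes did not reach the level for testing. Among them the surface marker Ly6g lay at or below 0.223 TPM in controls and 0.548 TPM in treated libraries. Elane, which encodes neutrophil elastase and is made in bone marrow precursors, was listed at 0 in all 18 libraries. The granule genes Mpo, Camp, Ltf and Ngp stayed under 1 TPM in every library. The label of whole tumour does not fix a cell type, and these values are given as levels of genes only.

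Ligands of CXCR2 and a granulocyte growth factor formed the next group. Cxcl2, a neutrophil-attracting chemokine, was at 1.06, 2.07 and 1.65 TPM in CT26 controls and 16.3, 30.6 and 11.1 TPM in CT26 tumours given OK-432. It was at 5.77, 2.29 and 2.76 TPM in CT26NYESO1 controls and 164, 19.5 and 107 TPM in CT26NYESO1 tumours given OK-432. In LL2 the values were 9.14, 6.3 and 6.51 TPM in controls and 30.2, 33.9 and 66.4 TPM with OK-432. All 9 treated libraries lay above all 9 controls, with a smallest gap within a tumour type of 1.6, and Cxcl2 rose by 3.08 ± 0.361 (SE; limma adjusted p = 0.00196). Cxcl3, of the same cluster on chromosome 5, began from unlike levels. It was at 19.9, 13.8 and 17.5 TPM in CT26 controls and 30.6, 22.2 and 22.1 TPM in CT26 tumours given OK-432, a narrow step. By contrast it was at 0.897, 0.431 and 0.944 TPM in CT26NYESO1 controls and 64, 5.97 and 35.5 TPM in CT26NYESO1 tumours given OK-432. In LL2 tumours it was at 3.9, 1.58 and 3.83 TPM without and 13.5, 23.4 and 32.6 TPM with OK-432. Its control level in CT26 exceeded some treated values in the other tumour types. Cxcl3 rose by 2.31 ± 0.352 (SE; limma adjusted p = 0.0146), with effects of 0.52 in CT26, 3.87 in CT26NYESO1 and 2.53 in LL2. The call of Cxcl3 ended without the second CT26NYESO1 control (2.26, limma adjusted p = 0.0509).

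Csf3 encodes granulocyte colony-stimulating factor, which releases neutrophils from bone marrow. It was at 0.164, 0.226 and 0.194 TPM in CT26 controls and 0.444, 0.78 and 0.282 TPM in CT26 tumours given OK-432. Values in CT26NYESO1 were 0.141, 0 and 0.0721 TPM in controls and 5.1, 0.438 and 3.59 TPM with OK-432. In LL2 they were 0.434, 1.55 and 1.5 TPM in controls and 12.7, 10.1 and 13.8 TPM with OK-432. Csf3 stayed under 1 TPM in all CT26 libraries and passed 10 TPM in each treated LL2 library. It rose by 1.55 ± 0.217 (SE; limma adjusted p = 0.00364), by 0.32 in CT26, 1.68 in CT26NYESO1 and 2.65 in LL2, and its smallest gap was 0.06. The other ligands on the panel did not pass the test in the average. Cxcl5 had 1.64 ± 0.297 (SE; limma adjusted p = 0.0514) and was separated in CT26NYESO1 and LL2, and Cxcl1 had 1.47 ± 0.421 (SE; limma adjusted p = 0.302) and was separated only in CT26NYESO1 by this rule. In the second treated LL2 library Cxcl1 was at 45.5 TPM, inside the control range of 28.3 to 48.8 TPM. Of 12 listed genes 8 were tested, 3 were called and the same number separated, and 7 of 8 averages were above 0. Over all tested genes 0.167% were called higher, 0.184% were separated higher and 43.5% had an average above 0. The list's median was 1.51, with 0.36 in CT26, 2.29 in CT26NYESO1 and 1.22 in LL2.

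Of the interleukin-1 family, Il1b, Il1a and Il1f9 rose. Il1b encodes interleukin-1 beta, a cytokine that starts fever and neutrophil recruitment. Il1b was at 21.9, 27.7 and 28.7 TPM in CT26 controls and 52.8, 48.8 and 29.7 TPM in CT26 tumours given OK-432. It was at 13.6, 16.1 and 23.2 TPM in CT26NYESO1 controls and 226, 56.4 and 191 TPM in CT26NYESO1 tumours given OK-432. In LL2 it was at 21.6, 25.1 and 21.7 TPM in controls and 45.2, 38.7 and 73.3 TPM with OK-432. The third treated CT26 library lay barely above the highest CT26 control, with a log2 gap of 0.05. Il1b rose by 1.57 ± 0.246 (SE; limma adjusted p = 0.0191), and its effects were 0.69 in CT26, 2.9 in CT26NYESO1 and 1.12 in LL2. Il1a, the membrane-associated relative 54598 bases away, rose by 1.24 ± 0.179 (SE; limma adjusted p = 0.00378). It lay at 0.435 to 0.87 TPM in CT26 controls and 2.42 to 3.1 TPM with OK-432, at 0.764 to 1.5 TPM in CT26NYESO1 controls and 2.73 to 9.82 TPM with OK-432, and at 0.248 to 0.435 TPM in LL2 controls and 0.752 to 2.47 TPM with OK-432. Il1f9 encodes interleukin-36 gamma, a cytokine of epithelia and myeloid cells. It was under 1 TPM in all controls, reached 1.58 to 12.2 TPM in treated CT26NYESO1 tumours, and rose by 1.74 ± 0.229 (SE; limma adjusted p = 0.00212).

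Several inflammatory mediators did not pass the test. Tnf, which encodes tumour necrosis factor, had an average of 0.08 ± 0.101 (SE; limma adjusted p = 0.829), with a 95% interval of -0.13 to 0.30. Treated libraries held 9.27 to 13.9 TPM of Tnf in CT26, against 10 to 11.1 TPM in controls. Il6 had 0.53 ± 0.158 (SE; limma adjusted p = 0.302) and lay at 1.37 to 1.75 TPM in CT26NYESO1 controls and 1.52 to 6.41 TPM with OK-432, the second treated library being inside the control range. Il1rn, the interleukin-1 receptor antagonist, had 0.69 ± 0.194 (SE; limma adjusted p = 0.294). Ptgs2, the inducible cyclooxygenase, had 0.69 ± 0.187 (SE; limma adjusted p = 0.274), with effects of -0.12 in CT26, 0.80 in CT26NYESO1 and 1.38 in LL2. The list of interleukin-1 family and proinflammatory cytokines had 17 tested members. Limma called 3 of them, against 0.167% of all tested genes called higher, and 14 had an average above 0, against 43.5%. The list's median was 0.41, and it was -0.03 in CT26.

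Of the genes for antimicrobial and acute phase proteins, Lcn2, Saa3, Chil1 and Slpi rose. Lcn2 encodes lipocalin 2, which withholds iron from bacteria by binding siderophores. It was at 0.33, 2.42 and 0.238 TPM in CT26 controls and 11.1, 5.51 and 10.8 TPM in CT26 tumours given OK-432. In CT26NYESO1 the values were 4.38, 2.99 and 4.87 TPM in controls and 196, 19.8 and 101 TPM with OK-432. In LL2 they were 0.191, 1.16 and 0.524 TPM in controls and 7.87, 12.2 and 17.6 TPM with OK-432. Every treated library of Lcn2 was above every control of the study. Lcn2 rose by 3.13 ± 0.379 (SE; limma adjusted p = 0.00212). Saa3, a serum amyloid made locally in inflamed tissue, was at 8.18, 3.26 and 2.08 TPM in CT26 controls and 52.3, 16.6 and 24.3 TPM in CT26 tumours given OK-432. It was at 27, 12.1 and 5.92 TPM in CT26NYESO1 controls and 324, 83.9 and 262 TPM in CT26NYESO1 tumours given OK-432, and in LL2 at 8.69, 7.98 and 1.84 TPM in controls and 20, 26.1 and 101 TPM with OK-432. Saa3 varied widely among controls of the same tumour type, and it rose by 3.0 ± 0.449 (SE; limma adjusted p = 0.014). Chil1, a chitinase-like protein without enzyme activity, rose by 1.74 ± 0.192 (SE; limma adjusted p = 0.000584). It was at or below 0.461 TPM in all controls. Slpi, a protease inhibitor that protects tissue from neutrophil elastase, rose by 1.72 ± 0.21 (SE; limma adjusted p = 0.0019). Its CT26 controls (8.0 to 19.6 TPM) lay higher than those of CT26NYESO1 (2.4 to 3.05 TPM) and LL2 (1.9 to 2.18 TPM). Of 15 tested genes on the acute phase and antimicrobial list, 4 were called, against 0.167% of all tested genes called higher. An average above 0 was found for 13 of the 15, against 43.5% of all tested genes, and the median was 0.28.

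Other called genes encode receptors, an enzyme and a non-coding RNA. Clec4e (Mincle), a lectin that senses microbial glycolipids and dead cells, rose by 1.41 ± 0.219 (SE; limma adjusted p = 0.014). Its levels were 2.38 to 3.03 TPM in CT26 controls and 6.11 to 10.1 TPM with OK-432, 3.73 to 7.71 TPM in CT26NYESO1 controls and 11.7 to 46.5 TPM with OK-432, and 4.93 to 6.35 TPM in LL2 controls and 9.0 to 14.3 TPM with OK-432. Cd14, the co-receptor that passes bacterial products to Toll-like receptors, had a small rise of 0.38 ± 0.0718 (SE; limma adjusted p = 0.0406) at a high level. It lay at 68.1 to 71.6 TPM in CT26 controls and 74.5 to 78 TPM with OK-432, at 87.1 to 102 TPM in CT26NYESO1 controls and 120.5 to 180 TPM with OK-432, and at 37.2 to 42.9 TPM in LL2 controls and 48.6 to 65 TPM with OK-432. Its CT26 ranges are close together and its CT26NYESO1 ranges are the widest apart. Among 23 tested bacterial sensing receptors and adaptors Cd14 alone was called, against 0.167% of all tested genes called higher. The median effect of the list was -0.02. At an unadjusted p under 0.05, 2 of the 23 were higher and 2 lower, against 4.38% and 5.94% of all tested genes. Arg2, the mitochondrial arginase, rose by 1.02 ± 0.174 (SE; limma adjusted p = 0.0196). It lay at 2.86 to 3.17 TPM in CT26 controls and 3.76 to 4.98 TPM with OK-432, at 3.08 to 4.98 TPM in CT26NYESO1 controls and 7.65 to 23.9 TPM with OK-432, and at 0.583 to 0.782 TPM in LL2 controls and 1.32 to 3.6 TPM with OK-432. It overlaps the gene Vti1b on the other strand, and the sources used here do not state whether counting used strand. Gipr, the receptor of the gut hormone GIP, rose by 0.77 ± 0.118 (SE; limma adjusted p = 0.00596) at low levels, up to 2.03 TPM. The long non-coding RNA gene Mirt2 rose by 1.45 ± 0.234 (SE; limma adjusted p = 0.0144). It was under 1 TPM in all controls and reached 1.05 to 9.1 TPM in treated CT26NYESO1 tumours.

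Called genes that were not separated in every tumour type numbered 4. Cstdc4, another stefin gene, rose by 1.85 ± 0.204 (SE; limma adjusted p = 0.000584), but in LL2 the lowest treated library (0.706 TPM) lay below the highest control (0.796 TPM). Near-identical stefin copies sit together on chromosome 16, so the reads of Cstdc4 and Stfa2l1 may have been shared among copies and their values are uncertain. Cd24a, a surface glycoprotein that is high on neutrophils and on many tumour cells, rose by 0.94 ± 0.169 (SE; limma adjusted p = 0.0278), and Mrgpra2b, a receptor gene listed among neutrophil genes, by 1.05 ± 0.196 (SE; limma adjusted p = 0.0406). Both were just short of separation in LL2. There Mrgpra2b was near 0, at 0 to 0.117 TPM in controls and 0.0832 to 1.02 TPM with OK-432. Slc13a3, a dicarboxylate transporter, rose by 0.70 ± 0.131 (SE; limma adjusted p = 0.0403) and was separated only in LL2 by this rule. Its effects were 0.16 in CT26, 0.34 in CT26NYESO1 and 1.59 in LL2, so the average came mostly from LL2. It lay at 1.14 to 1.61 TPM in CT26 controls and 1.4 to 1.88 TPM with OK-432, at 0.351 to 0.768 TPM in CT26NYESO1 controls and 0.563 to 1.22 TPM with OK-432, and at 2.87 to 4.87 TPM in LL2 controls and 8.78 to 20 TPM with OK-432.

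Separated higher without a call were 7 genes. Ccl3, a chemokine for monocytes and neutrophils, had an average of 1.5 ± 0.313 (SE; limma adjusted p = 0.109) and effects of 1.35 in CT26, 1.71 in CT26NYESO1 and 1.45 in LL2. It lay at 3.26 to 4.46 TPM in CT26 controls and 6.18 to 20.4 TPM with OK-432, at 5.46 to 12 TPM in CT26NYESO1 controls and 12.1 to 63.8 TPM with OK-432, and at 3.02 to 4.61 TPM in LL2 controls and 7.2 to 18.9 TPM with OK-432. In CT26NYESO1 its lowest treated value and its highest control value differed by only 0.01 on the log2 scale. Its neighbour Ccl4 had 1.16 ± 0.262 (SE; limma adjusted p = 0.147). Rhov had 0.84 ± 0.187 (SE; limma adjusted p = 0.116), and the transcript Gm37691, 8054 bases from G0s2, had 0.59 ± 0.134 (SE; limma adjusted p = 0.122). Gm29683, Bend4, Otx1 and Sh3rf1 had averages of 0.30, 0.25, 0.21 and 0.13, with limma adjusted p between 0.147 and 0.302.

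**Figure D2:**
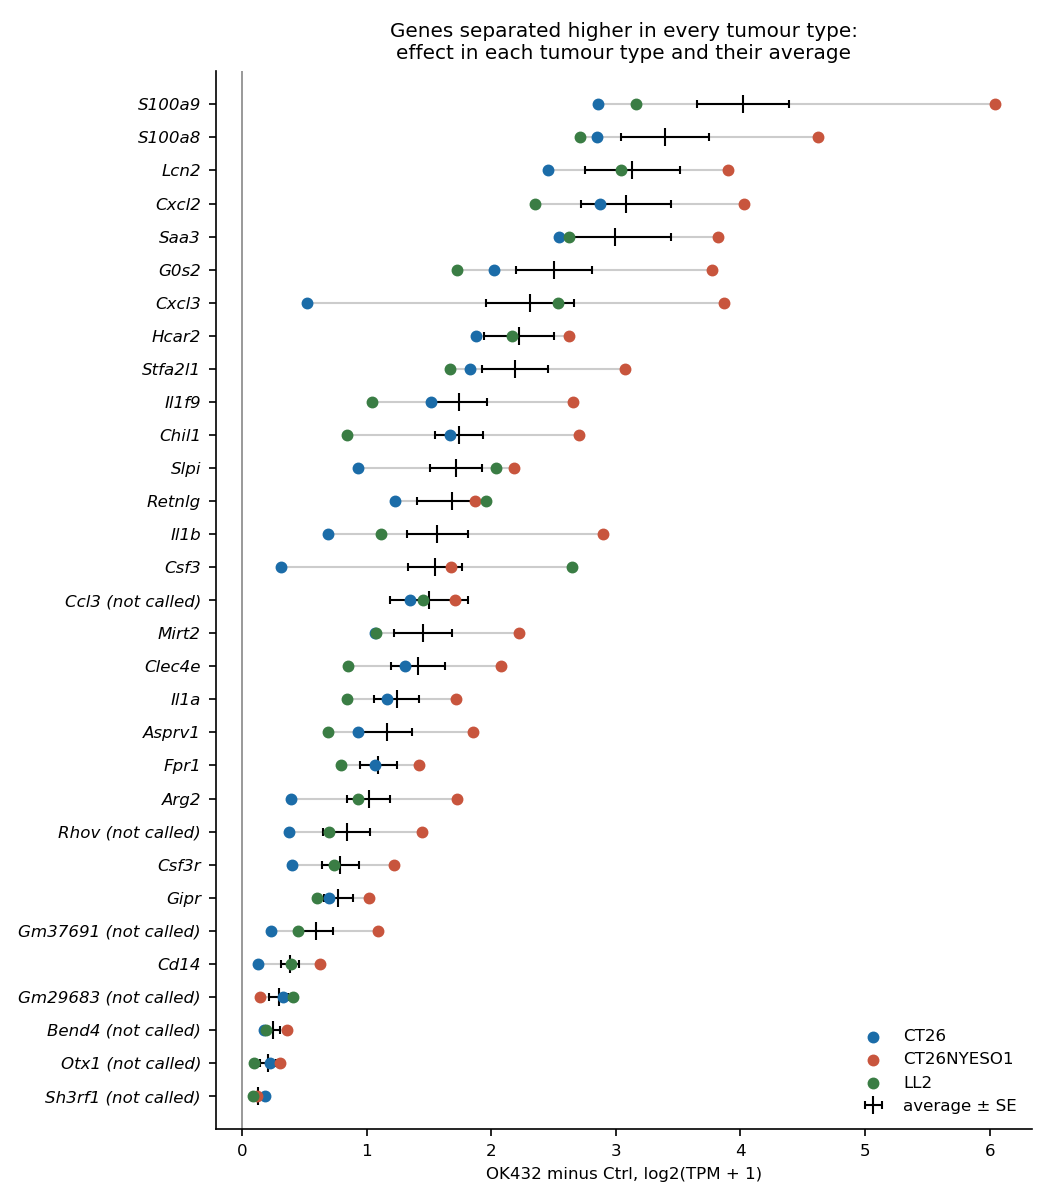
OK432 minus Ctrl difference on log2(TPM + 1) for the 31 genes separated higher in every tumour type; coloured points are the 3 tumour types and the black mark with its bar is the average ± SE. The CT26NYESO1 point is the rightmost for 27 of the 31 genes, and genes marked as not called missed the adjusted p threshold.

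The size of the response varied among the 31 genes. The average was at least 1 for 22 of the 31 genes, and 12 had an effect of at least 1 in every tumour type. The gap between treated and control libraries was at least 1 in each tumour type for 5 genes: S100a9, S100a8, Cxcl2, G0s2 and Stfa2l1. It was at least 0.5 for 9 genes and under 0.1 for 10. Across the 31 genes the largest effect was in CT26NYESO1 for 27, in LL2 for 3 and in CT26 for 1. The smallest was in CT26 for 17, in LL2 for 13 and in CT26NYESO1 for 1. A limma F test that the 3 effects are equal called none of the 31, and the lowest adjusted p was 0.452. At an unadjusted p under 0.05 it found 10 of the 31, and 1395 of all tested genes. Over all tested genes it called 1 gene, 0.00595%. A missed threshold does not show that the effects were equal.

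**Figure D3:**
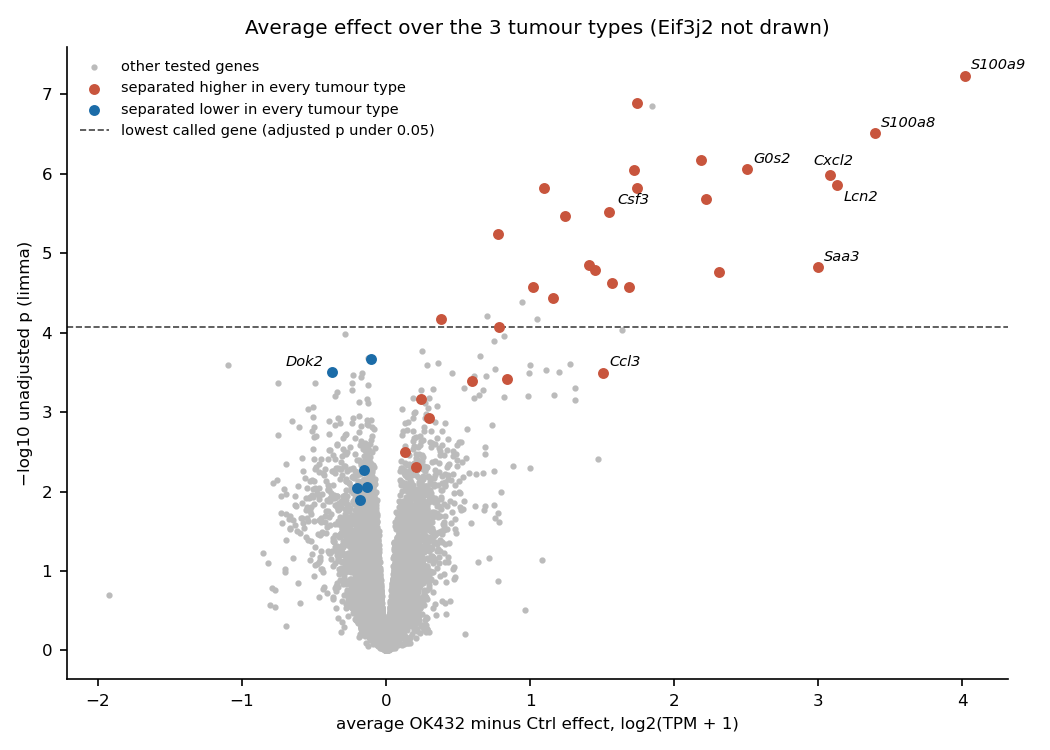
Average effect on log2(TPM + 1) (x axis) against -log10 of limma's unadjusted p (y axis) for tested genes other than Eif3j2, with genes separated in every tumour type in colour. The separated higher genes reach 4.02, and the separated lower genes lie between -0.38 and -0.11.

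Libraries of a group were not alike in these genes. The summed TPM of the 31 genes was 187, 183 and 202 in CT26 controls and 494, 411 and 442 with OK-432. In CT26NYESO1 it was 219, 165 and 210 in controls and 2214, 478 and 1613 with OK-432. LL2 controls held 137, 153 and 121 TPM and treated LL2 tumours 374, 410.1 and 702 TPM. The second treated CT26NYESO1 library stood apart: it was the lowest of its group for 29 of the 31 genes, and the first was the highest for 27. In LL2 the first treated library was lowest for 23 genes and the third highest for 25. Without the second treated CT26NYESO1 library 127 genes were called higher, among them all 28. The highest level of the separated group therefore came from 2 libraries. Marker genes of skeletal muscle also differed between libraries. Their summed level was 37.4 to 38.6 TPM in CT26 controls and 45.8 to 236 TPM in treated CT26 tumours, the first treated library being highest. It was 129 to 327 TPM in CT26NYESO1 controls, 121 to 280 TPM in treated ones, 133 to 260.1 TPM in LL2 controls and 59.3 to 546 TPM in treated ones. None of the 18 tested muscle genes was called or had an unadjusted p under 0.05 in the average, and the part of muscle in the results was not tested. With the first treated CT26 library left out as well as the second treated CT26NYESO1 library, 90 genes were called higher, again with all 28 among them. Without the first treated CT26 library alone, 19 of the 28 were called.

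**Figure D4:**
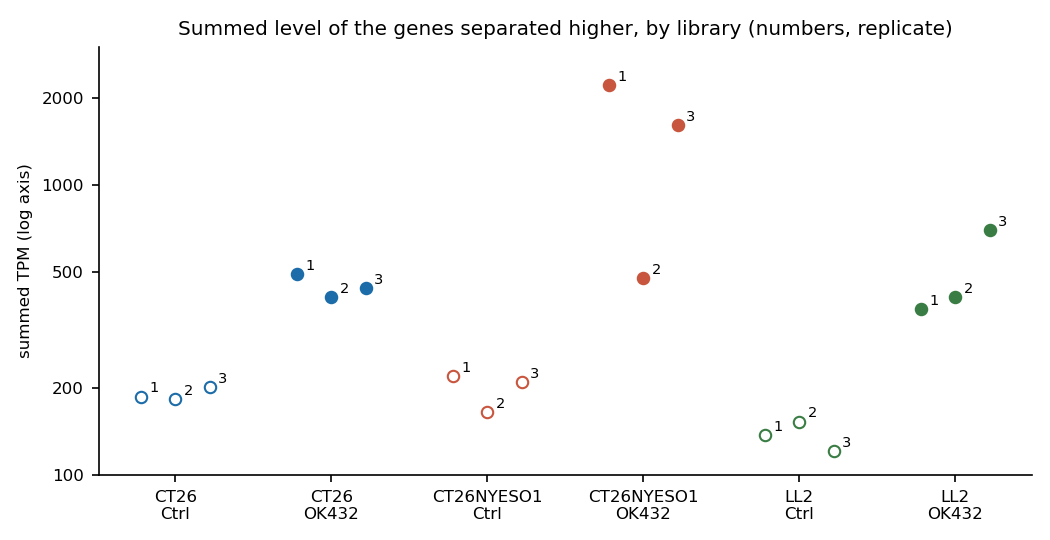
Summed TPM (log axis) of the 31 genes separated higher in every tumour type, for each of the 18 libraries, with the replicate number beside each point (open, Ctrl; filled, OK432). Treated libraries lie at 374 TPM or more and controls at 219 TPM or less, and 2 of the 3 treated CT26NYESO1 libraries are at 1613 and 2214 TPM.

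Lists of other myeloid genes held at most 1 call each, and over all tested genes 0.167% were called higher. Among 18 tested macrophage genes and 15 monocyte genes limma called none, and the medians were -0.11 for both lists. The average was below 0 for 16 and 10 of them, against 56.5% of all tested genes. At an unadjusted p under 0.05, 1 macrophage gene was lower, and of the monocyte genes 4 were lower and 1 higher. Over all tested genes 5.94% were lower and 4.38% higher at that threshold. Adgre1, a surface receptor of mature macrophages, had an average of -0.10 ± 0.0807 (SE; limma adjusted p = 0.731). Ly6c2, a marker of inflammatory monocytes, had an average of -1.1 ± 0.222 (SE; limma adjusted p = 0.103). It was at 42 to 53.8 TPM in CT26 controls and 16.8 to 25.2 TPM with OK-432, at 24.8 to 41.8 TPM in CT26NYESO1 controls and 19.7 to 30.3 TPM with OK-432, and at 14.4 to 58 TPM in LL2 controls and 5.99 to 11.8 TPM with OK-432. Ranges of Ly6c2 overlapped in CT26NYESO1 and not in the other tumour types. The list of suppressive myeloid genes had 20 tested members, 1 call (Arg2) and a median of 0.20. At an unadjusted p under 0.05, 7 of its members were higher and 3 lower. Nos2, the inducible nitric oxide synthase, had 1.31 ± 0.30 (SE; limma adjusted p = 0.151), and Arg1, the cytosolic arginase, 0.48 ± 0.204 (SE; limma adjusted p = 0.439). Of 24 lectins and Trem receptors 1 was called, Clec4e, with a list median of 0.11, and 9 were higher and 0 lower at an unadjusted p under 0.05. None of 21 tested NF-kappaB feedback genes was called by limma, and 8 were higher at an unadjusted p under 0.05, against 4.38% of all tested genes. Nfkbia, the inhibitor that NF-kappaB induces, had 0.51 ± 0.137 (SE; limma adjusted p = 0.27). The CC chemokine list had 14 tested members, no call and a median of -0.01, with 2 genes higher and 2 lower at an unadjusted p under 0.05. Ccl2 was at 0.02 ± 0.192 (SE; limma adjusted p = 0.985).

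Most interferon-stimulated genes had averages below 0, and none passed the adjusted threshold. Of 36 tested type I interferon-stimulated genes limma called none, 33 were lower at an unadjusted p under 0.05, against 5.94% of all tested genes, 35 had an average below 0, against 56.5% of all tested genes, and 34 were below 0 in all 3 tumour types. Their median was -0.52, with -0.36 in CT26, -0.27 in CT26NYESO1 and -1.01 in LL2. Ifit1, an RNA-binding antiviral protein, had -0.69 ± 0.259 (SE; limma adjusted p = 0.393), and Cxcl10, a T cell chemokine, had -0.71 ± 0.232 (SE; limma adjusted p = 0.34). Cxcl10 was at 32.2, 113 and 69.3 TPM in LL2 controls and 19.3, 45.6 and 20.7 TPM in treated LL2 tumours, with overlap. Of 27 interferon-gamma-induced genes none was called, 17 were lower at an unadjusted p under 0.05, 25 had an average below 0, and the median was -0.47. Cxcl9 had -0.70 ± 0.399 (SE; limma adjusted p = 0.586) and Ifng, the cytokine itself, -0.17 ± 0.128 (SE; limma adjusted p = 0.694). For 11 genes of MHC class I presentation the median was -0.22, and for 10 of class II it was -0.34. All 11 and all 10 had an average below 0, against 56.5% of all tested genes. Neither list held a call, and 1 class I gene was lower at an unadjusted p under 0.05. Cd274, which encodes the checkpoint ligand PD-L1, had 0.05 ± 0.177 (SE; limma adjusted p = 0.956).

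Lymphocyte genes gave no call either. The medians were -0.16 for 25 T cell genes and -0.18 for 20 genes of NK cells and cytotoxic effectors. Of these, 1 and 7 were lower at an unadjusted p under 0.05, against 5.94% of all tested genes. An average below 0 was found for 23 and 15 of them, against 56.5%. Cd8a, the co-receptor of cytotoxic T cells, had -0.17 ± 0.162 (SE; limma adjusted p = 0.775), at no more than 4.69 TPM in any library. Ncr1, an NK cell receptor, had -0.31 ± 0.112 (SE; limma adjusted p = 0.356). All 25 hypoxia and glycolysis genes had an average above 0, against 43.5% of all tested genes, 9 had an unadjusted p under 0.05, against 4.38%, and limma called none, with a median of 0.21 and of -0.03, 0.51 and 0.18 in CT26, CT26NYESO1 and LL2. Of 28 proliferation and DNA replication genes 27 had an average below 0, against 56.5% of all tested genes, 7 with an unadjusted p under 0.05, with a median of -0.10 and no call.

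**Figure D5:**
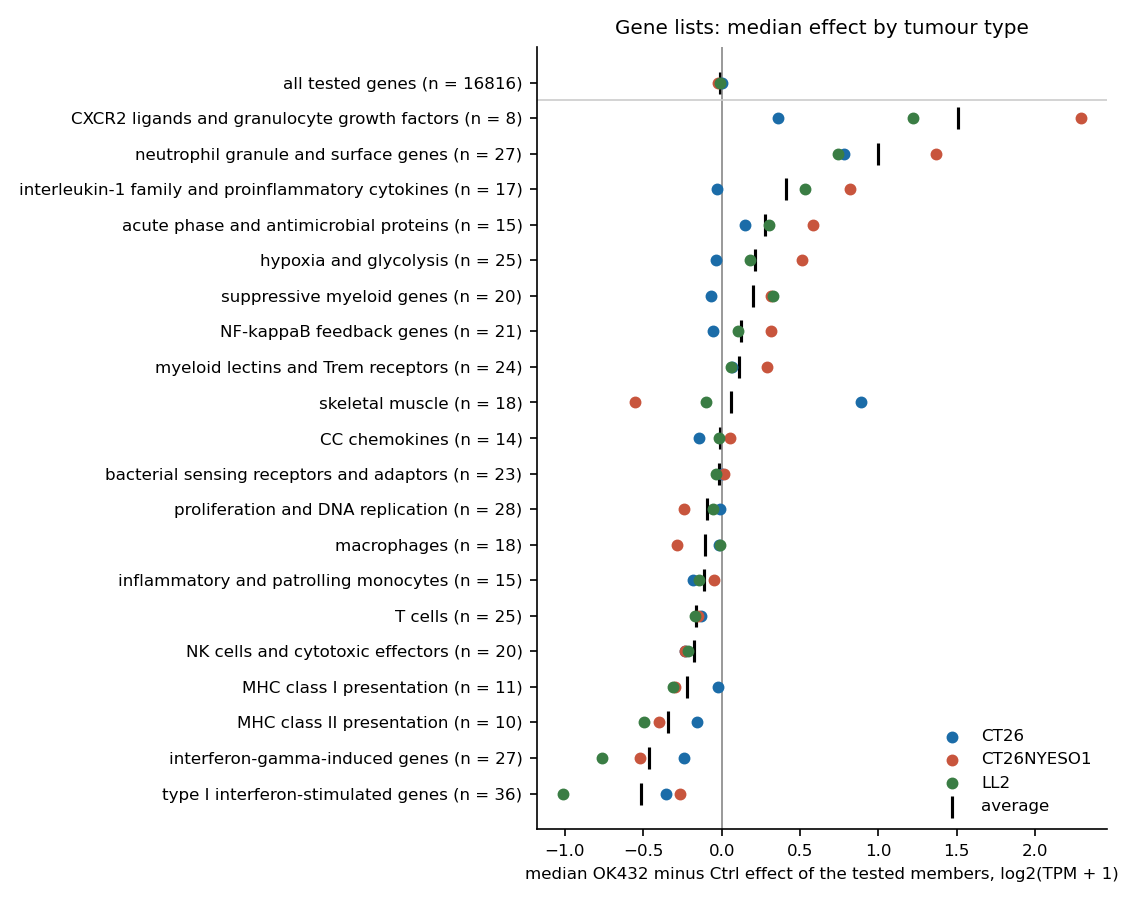
Median OK432 minus Ctrl effect on log2(TPM + 1) of the tested members of 20 gene lists and of all tested genes (x axis), by tumour type (coloured points) and for the average (black mark). The neutrophil and CXCR2 ligand lists lie at 1.0 and 1.51 in the average, the interferon lists at -0.52 and -0.47, and all tested genes at -0.01.

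Genes separated lower in every tumour type were few and had small averages. Dok2, an adaptor that restrains signalling in blood cells, was at 42.1, 46.9 and 35.8 TPM in CT26 controls and 34.9, 30.9 and 23.9 TPM with OK-432. It was at 61.2, 65.8 and 85.8 against 49.7, 60.5 and 47.8 TPM in CT26NYESO1 and at 30.2, 34.5 and 31.2 against 25.7, 29.2 and 25.4 TPM in LL2. The average of Dok2 was -0.38 ± 0.0824 (SE; limma adjusted p = 0.109). Naa20, the catalytic subunit of an N-terminal acetyltransferase, had -0.11 ± 0.0223 (SE; limma adjusted p = 0.098). Coq4, Cds1, 1700012D14Rik and Gm38312 had averages of -0.15, -0.18, -0.20 and -0.13. Gm38312 was under 1 TPM in LL2. None of the 6 was called. Dok2 overlaps Xpo7 and Coq4 overlaps Trub2, each on the other strand, and Gm38312 overlaps Sh3bp4 on the same strand. Xpo7 was itself separated lower in 2 tumour types. Whether the overlaps bear on these values was not tested, and the strand setting is unknown. The 1 called fall was Eif3j2, which differed by -1.35 ± 0.0365 (SE; limma adjusted p = 6.09e-13). It came from LL2, where Eif3j2 was at 13.9, 13.9 and 13 TPM in controls and listed at 0 in all 3 treated libraries, with effects of -0.09 and -0.10 in CT26 and CT26NYESO1. It has the near-identical copy Eif3j1, so its value is uncertain.

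Genes near the 31 on the chromosome were counted as well. Of the 31 genes, 6 lay within 100 kb of another: S100a8 and S100a9, Il1a and Il1b, and G0s2 and Gm37691. The other tested genes with a position in GENCODE M21 within 100 kb of the 31 numbered 140. None of these was called higher, against 0.167% of all tested genes, so the lack of a call says little. An average above 0 was found for 71, against 43.5% of all tested genes. It was at least 0.5 for 9, and the median was 0.00198. Cstdc4, which was called higher, has no position in GENCODE M21 and was not counted. RefSeq places it at chr16:36184212-36188111, within 100 kb of Stfa2l1 (chr16:36156811-36161953). Cxcl1 and Cxcl5, which share a cluster with Cxcl2 and Cxcl3, and Ccl4 beside Ccl3 are neighbours described above.

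The 28 called rises were compared across subsets of the data. When any 1 of the 18 libraries was left out, 18 of the 28 stayed called in each refit, among them S100a9, S100a8, Lcn2, Cxcl2, Saa3, G0s2 and Csf3. The other 10 lost the call in at least 1 refit. Of the 18 refits Cxcl3 was called in 17, Il1b in 11, Retnlg in 9, Arg2 in 8, Asprv1 in 5 and Slc13a3 in 4. Csf3r, Cd14 and Cd24a were called in 3 and Mrgpra2b in 2. With 1 tumour type left out, calls among the 28 numbered 2 without CT26, 18 without CT26NYESO1 and 3 without LL2. Without the filter on low values, which adds genes to the adjustment, the calls of Csf3r, Cd14, Arg2, Slc13a3, Asprv1, Cd24a and Mrgpra2b ended (limma adjusted p from 0.0579 to 0.109).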

How the data were processed

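Bulk mRNA was measured in 18 tumour libraries, in 6 groups of 3. The authors deposited 1 table of TPM values, made with Trim Galore 0.6.5, STAR 2.7.3a and StringTie 2.1.2 on mm10, per the submitters' processing notes. Annotation, strand setting and filters were not given in these sources. Since TPM holds no depth, no counting interval is given, and as a share of the library it moves with abundant genes. A value of 0 can be a failed estimate.

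Groups were taken from the labels. Values were analysed as log2(TPM + 1), which understates changes of low genes. In R 4.3.3, limma 3.58.1 fitted 6 group means with robust, trended empirical Bayes (12 residual degrees of freedom), and the procedure was tested on simulated data. Separation and list medians are descriptions. Genes named are the 12 largest called rises among separated genes reaching a group mean of 5 TPM, those with the widest gaps, a fixed panel, up to 3 called members (or the first member) of each list described, and all other genes called or separated in every tumour type. The members and lists were chosen with earlier results of these data known. Positions are from GENCODE M21 on mm10. Alternatives were other pseudocounts, filters and scalings, array weights, a replicate block, a single shared effect, and leaving out each library or tumour type.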

Additional observations from a re-analysis of the deposited data

Results flagged for a closer look

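Eif3j2, which encodes a subunit of translation initiation factor 3, was the 1 gene whose 3 effects differed by limma's F test (adjusted p = 3.69e-14). Its effects were -0.09 in CT26, -0.10 in CT26NYESO1 and -3.87 in LL2, and it was listed at 0 in the 3 treated LL2 libraries.

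The effects of 3 genes were separated in opposite directions by tumour type, and for these the difference between tumour types was not called by the F test. Cryl1, a crystallin-like dehydrogenase, had an average of -0.235 and effects of 0.25 in CT26, -0.67 in CT26NYESO1 and -0.29 in LL2 (limma F test adjusted p = 0.117). Abcf2, an ATP-binding protein, had an average of -0.0724 and effects of -0.11 in CT26, -0.22 in CT26NYESO1 and 0.11 in LL2 (adjusted p = 0.35). Atat1, a tubulin acetyltransferase, had an average of 0.0671 and effects of 0.11 in CT26, 0.26 in CT26NYESO1 and -0.17 in LL2 (adjusted p = 0.452). They were among the 21 genes that were separated in all 3 tumour types but not in 1 direction.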

How the results depend on the processing

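Calls were 28 higher and 1 lower in the average, 31 higher and 6 lower by separation, and 1 unequal. A pseudocount of 0.1 gave 3 lower and 2 unequal, and one of 5 gave 13 higher. Without a filter 27 were higher, 21 of them among the 28, 6 lower and 23 unequal. With 5 TPM as the minimum 16 were higher and 19 separated higher. Median-of-ratios rescaling, quantile normalization, array weights and a fit that was not robust each gave 2 lower, and quantile normalization also 2 unequal. A single shared effect gave 18 higher and 0 lower. Without CT26, 2 were higher and 3 unequal, with 109 and 90 separated higher and lower. Without CT26NYESO1, 18 were higher and 2 unequal, with 56 and 46 separated. Without LL2, 3 were higher, with 84 and 99 separated. A gap of at least 0.5 left 9 higher and 0 lower. With 1 library left out, called higher ranged over 19 to 127, called lower over 1 to 14, separated higher over 31 to 46, separated lower over 6 to 17 and unequal over 1 to 43. Leaving out both libraries that stand apart, an alternative chosen after seeing the data, gave 90 higher, 5 lower, 42 unequal and 14 separated lower. The causes of these changes were not tested, and some alternatives also had fewer samples or genes.

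No label states that equal replicate numbers pair a control with a treated sample, and the main fit did not pair them. Correlations of same-numbered libraries, after group means were removed, ran from -0.12 to 0.22. With 3 libraries a group these values cannot settle whether samples were paired. With a replicate block 43 genes were called higher and 55 lower, the former with 25 of the 28, and the calls of Saa3, Il1b and Slc13a3 ended (limma adjusted p = 0.0617, 0.0507 and 0.0592).

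Some averages of genes that were not called changed sign. Ccl1 was at -0.067 with a pseudocount of 0.1 and -0.052 without both libraries, and Cd3d at 0.00473 with a pseudocount of 0.1 and 0.13 without CT26NYESO1. Acta1 was at -0.60 without CT26 and -0.44 without both libraries. Without CT26NYESO1 Cd274 was at -0.037 and Atat1 at -0.029. Without LL2 Ccl2 was at -0.14 and H2-K1 at 0.014. With 1 library left out Ccl1 ranged over -0.0015 to 0.21, Cd3d over -0.12 to 0.14, Acta1 over -0.11 to 1.10, Cd274 over -0.063 to 0.14, Ccl2 over -0.079 to 0.13 and H2-K1 over -0.13 to 0.077. Depth is unknown, which limits statements about genes near 0.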

Other observations

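Lists of other cell types and pathways held no call by limma. All 8 tested platelet and erythroid genes had an average above 0, against 43.5% of all tested genes, with a median of 0.27. Among 16 endothelial genes 15 were above 0, with a median of 0.10. Matrix metalloproteinases and their inhibitors had a median of 0.18 over 14 genes, and immediate early and heat shock genes one of 0.14 over 22. Dendritic cell genes had a median of -0.12 over 12 genes, and B and plasma cell genes one of -0.07 over 8. Medians of the lists for fibroblasts, leukocyte adhesion, inflammasomes, granulocytes other than neutrophils, adipocytes, keratinocytes, mitochondrially encoded genes and the prostaglandin pathway lay between -0.06 and 0.05.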
